A study of Mus musculus with 15 samples.

Results

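The livers of 5 mice that received protectin DX (PDX) from 22 months of age were compared with the livers of 5 Adult mice that received vehicle from 6 months of age. These were 10 of the 15 female C57BL/6 livers sequenced, and each mouse entered by its label, although the comparison itself was chosen with earlier results of these data known. PDX is a dihydroxy lipid mediator made from docosahexaenoic acid, and it was given by daily gavage in corn oil at 30 ng per g of body weight. The Adult mice (A1 to A5) received the corn oil alone, and so did the remaining 5 mice (Old), which were 22 months old at the start. No genetic change is named for any group. Because the PDX mice (P1 to P5) differed from the Adult mice in age as well as in treatment, and no young mice received PDX, the contributions of age and of PDX to every difference given here cannot be told apart. The series text gives 8 weeks of gavage and the treatment protocol 9 weeks. The mice were killed in batches between 8 in the morning and 5 in the afternoon, and the batch and hour of each mouse are not given in the sources used here.

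The liver is built mostly of hepatocytes, which make plasma proteins and bile acids, dispose of nitrogen as urea, burn and export fat, and clear drugs and steroids through cytochromes P450 and conjugating enzymes. Around them sit Kupffer cells, which are the resident macrophages, together with sinusoidal endothelial cells, stellate cells, bile duct cells and variable numbers of lymphocytes and other leukocytes. During inflammation, cytokines switch hepatocytes toward the acute-phase proteins, and in many settings the enzymes of metabolism fall at the same time. Old mice of many strains gather lymphocytes in the liver, and lipid mediators such as PDX are studied for a role in ending inflammation.

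Messenger RNA was sequenced with a kit that keeps the strand, and the deposited files hold 1 count per gene and mouse. The libraries held 22424383 to 36070835 counts in the Adult group and 26113995 to 30139181 in the PDX group (two-sided exact permutation test, p = 0.476). The 10 most abundant genes took 20.3% to 21.3% of the counts in Adult and 24.0% to 26.9% in PDX, and the ranges did not overlap. Within each group no pair of libraries agreed within counting error, so each mouse was kept as 1 sample. Levels are given below as CPM, the counts of a gene scaled to a common library size with a factor for composition, and are compared between mice and not between genes.

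Of 15297 genes that passed a filter on low counts, 4529 differed between PDX and Adult livers at an adjusted p under 0.05, which is 29.6% of the genes tested. In PDX livers 2465 genes rose (16.1%) and 2064 fell (13.5%), and the median log2 fold change (PDX minus Adult) over all tested genes was -0.01. The changes were lopsided in size, since 1165 genes were at least 2-fold higher (7.62%) and 257 at least 2-fold lower (1.68%). All 5 PDX mice lay above or all 5 lay below the 5 Adult mice for 3043 genes (19.9%), and 2905 of these were also called (19.0%). The counts depend on which mice enter the fit. When the 5 Old mice entered the same fit, 420 of 15808 genes were called between PDX and Adult (2.66%), and 395 of them were among the 4529. In separate fits of 10 mice, Old against Adult called 105 of 15040 genes (0.698%). Fewer calls did not mean smaller changes, since the median absolute log2 fold change was 0.294 there and 0.245 in PDX against Adult. The study's own DESeq2 Wald test called more genes between Old and Adult. PDX against Old called 0 of 15423 by edgeR's quasi-likelihood test, with 393 genes at an unadjusted p under 0.05 and a smallest adjusted p of 0.955.

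**Figure D1:**
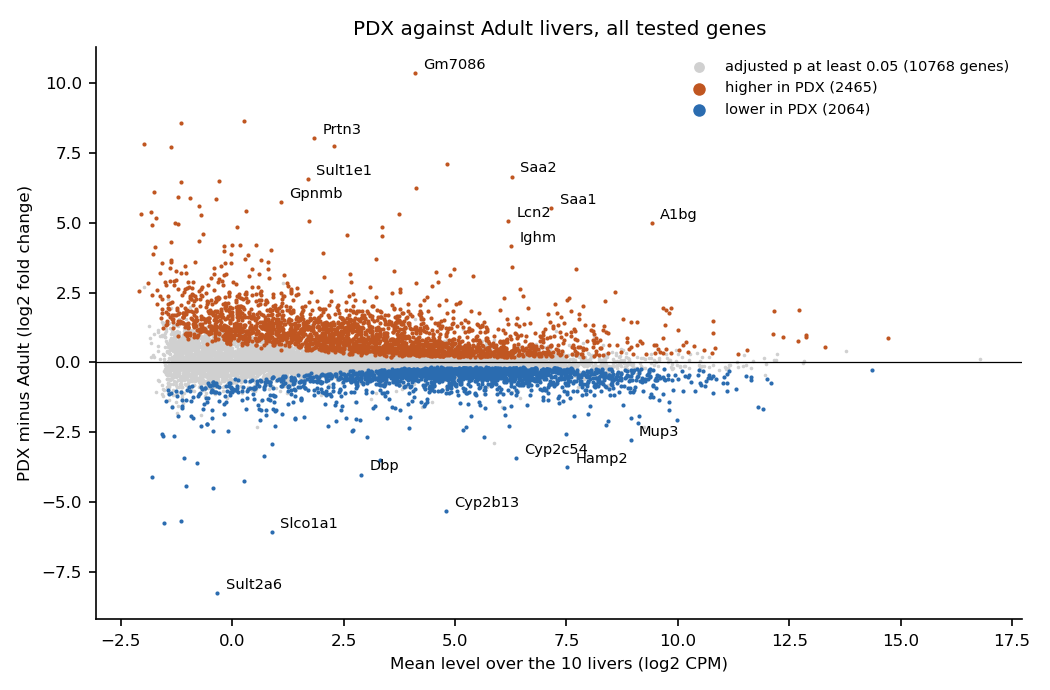
Each point is 1 of the 15297 tested genes, with its mean level (log2 CPM) on the horizontal axis and its log2 fold change, PDX minus Adult, on the vertical axis, and coloured points passed an adjusted p of 0.05. The 2465 genes that rose reach farther from 0 than the 2064 that fell.

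Each gene list described below was set beside these shares of all tested genes. The background for a list is 16.1% called higher and 13.5% called lower, with a median log2 fold change of -0.01. The groups did not overlap for 19.9% of all tested genes. The lists contain genes whose direction in these mice was partly known, so the counts describe the lists and do not test them.

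The PDX livers varied less among themselves than the Old livers. The biological coefficient of variation was 0.173 in Adult, 0.221 in PDX and 0.535 in Old, and pairwise correlations of log2 CPM were 0.979 to 0.988, 0.971 to 0.982 and 0.832 to 0.976 in the same order. The root mean square distance of a mouse from the mean of the 4 other mice of its group, over all tested genes, was 0.385 ± 0.034 log2 units in Adult (SD, n = 5), 0.438 ± 0.043 in PDX and 0.890 ± 0.309 in Old. The difference of 0.0529 between PDX and Adult did not pass a two-sided exact permutation test (p = 0.0794), but this call depended on the setting. It passed on the deposited log2 values (0.0598, exact p = 0.0317), over the 500 most variable genes (0.288, exact p = 0.0476), and when P3 or P4 was left out (0.0902 without P4, exact p = 0.0159), and it was 0.0229 without A5 (exact p = 0.349). The difference between PDX and Old was -0.452 (exact p = 0.00794, the smallest that 5 against 5 can give), or -0.297 without Old mouse O5. Each distance is measured from the other mice of its group, so the values of a group share mice and are not independent. The narrow spread of the PDX group was also known before these distances were computed, so they describe it and do not test it independently. The p-values of these distances are therefore only a guide.

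**Figure D2:**
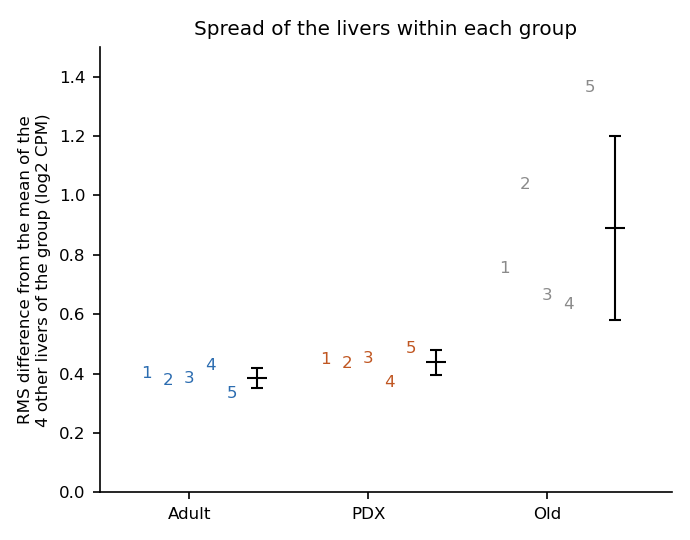
The plot gives, for each of the 15 mice, drawn as its number, the root mean square distance (log2 CPM) from the mean of the 4 other mice of its group over all tested genes, and bars give the group mean ± SD. The PDX mice (mean 0.438) lie near the Adult mice (mean 0.385), whereas the Old mice have a mean of 0.890.

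The largest rise was that of Gm7086 (chr15:60742858-60746535, annotated as a transcribed pseudogene, build GRCm38). It measured 0.855, 0.412, 0.358, 0.54 and 0.982 CPM in Adult mice A1 to A5 and 2819.8, 346, 62.8, 511 and 582 CPM in PDX mice P1 to P5. All PDX mice were far above all Adult mice, P1 most of all, and the log2 fold change was 10.36 ± 1.08 (SE, adjusted p = 0.000152, or 9.16 without P1). A1bg, a female-biased plasma glycoprotein gene that lies close by on chr15 (60896859-60923012), had 149, 57.6, 156, 56.3 and 258 CPM in Adult and 5135, 5806, 2471, 4748 and 3207 CPM in PDX. Its groups were also fully separated, by 4.98 ± 0.47 on the log2 scale (adjusted p = 8.38e-05). In the Old mice A1bg spread from 0.391 to 9669.5 CPM, so the PDX group was far narrower.

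Other large rises belonged to several functions. Prtn3, which encodes the neutrophil protease proteinase 3, measured 0.11, 0.137, 0.626, 0.252 and 0.112 CPM in Adult and 74.4, 124, 14.5, 44.2 and 37.1 CPM in PDX (log2 fold change 8.02 ± 0.70, adjusted p = 5.74e-05). Sult1e1, the estrogen sulfotransferase, measured 0.552, 0.48, 0.582, 0.432 and 0.168 CPM in Adult and 74.1, 83.7, 36, 2.53 and 8.77 CPM in PDX (6.55 ± 0.96, adjusted p = 0.000745). For both genes the groups did not overlap, which the rule that picked the leading rises required. Neither gene would have passed the low-count filter through the Adult group, so their separation is partly fixed by that filter. For Sult1e1 the PDX mice ranged widely, with P4 and P5 low. Gpnmb, a glycoprotein of lipid-loaded macrophages, rose by 5.73 ± 0.77 (adjusted p = 0.000481) from at most 0.671 CPM in Adult to 36.9, 5.71, 33.1, 4.58 and 8.06 CPM in PDX. Adcy1, an adenylyl cyclase, rose by 5.31 ± 0.53 from 3.67, 2.26, 3.94, 0.432 and 2.16 CPM to 170.2, 150.3, 49.3, 55.2 and 68.1 CPM (adjusted p = 0.000117). Serpina12, which encodes the serpin vaspin, rose by 4.55 ± 0.38, and the lens crystallin gene Crybb3 rose by 5.08 ± 0.97 (4.31 without P2).

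The 3 genes with the smallest p-values all fell. Sult2a8, a sulfotransferase of hepatocytes that acts on bile acids, had the smallest p of all genes (adjusted p = 4.6e-06). It measured 414, 404, 431, 552 and 393 CPM in Adult and 66.4, 60.5, 70.6, 82.3 and 90.1 CPM in PDX, a log2 fold change of -2.57 ± 0.13. The next smallest p-values were those of Cyp1a2, a cytochrome P450 that metabolises caffeine, and of Wdfy1, an endosomal adaptor protein. Cyp1a2 had 900.0, 1167, 982, 958 and 927 CPM in Adult and 219, 299, 211, 231 and 292 CPM in PDX (-1.98 ± 0.12, adjusted p = 1.83e-05). Wdfy1 had 22.8 to 30.9 CPM in Adult and 8.4 to 10.6 CPM in PDX (-1.48 ± 0.10). In all 3 genes the groups stood well apart and each group was narrow.

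Other falls were deeper and ranged more widely among the PDX mice. Cyp2b13, a female-biased P450, measured 205, 469, 352, 486 and 397 CPM in Adult and 0.351, 0.118, 4.78, 2.82 and 39.6 CPM in PDX (-5.32 ± 1.11, adjusted p = 0.00429). Cyp2c54 measured 359.6, 462, 364, 492 and 312 CPM in Adult and 4.45, 5.47, 17.6, 27.9 and 128 CPM in PDX (-3.44 ± 0.79, adjusted p = 0.00734). P5 was nearest to Adult for both, and without P5 the log2 fold changes were -7.52 and -4.84. Hamp2, a paralog of the iron hormone hepcidin, fell to 76.3, 16.5, 17.3, 34 and 162 CPM from 654, 877, 1137, 677 and 809 CPM (-3.76 ± 0.60, adjusted p = 0.00112, or -4.53 without P5), while Hamp itself did not pass the test (-0.88, adjusted p = 0.356). Other leading falls were Cyp2d9 (-3.50), the major urinary protein genes Mup3 (-2.80) and Mup20 (-2.42, or -3.13 without P3), the steroid dehydrogenase Hsd3b2 (-2.68), Etnppl, which degrades phosphoethanolamine (-2.66, or -3.43 without P5), the matrix protease Adamts7 (-2.46) and the noncoding Hectd2os (-2.43). The Mup, Cyp2b, Cyp2c and Hsd3b genes have close copies, and counts of uniquely mapped pairs can be split among them, so single members are less certain than the families.

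**Figure D3:**
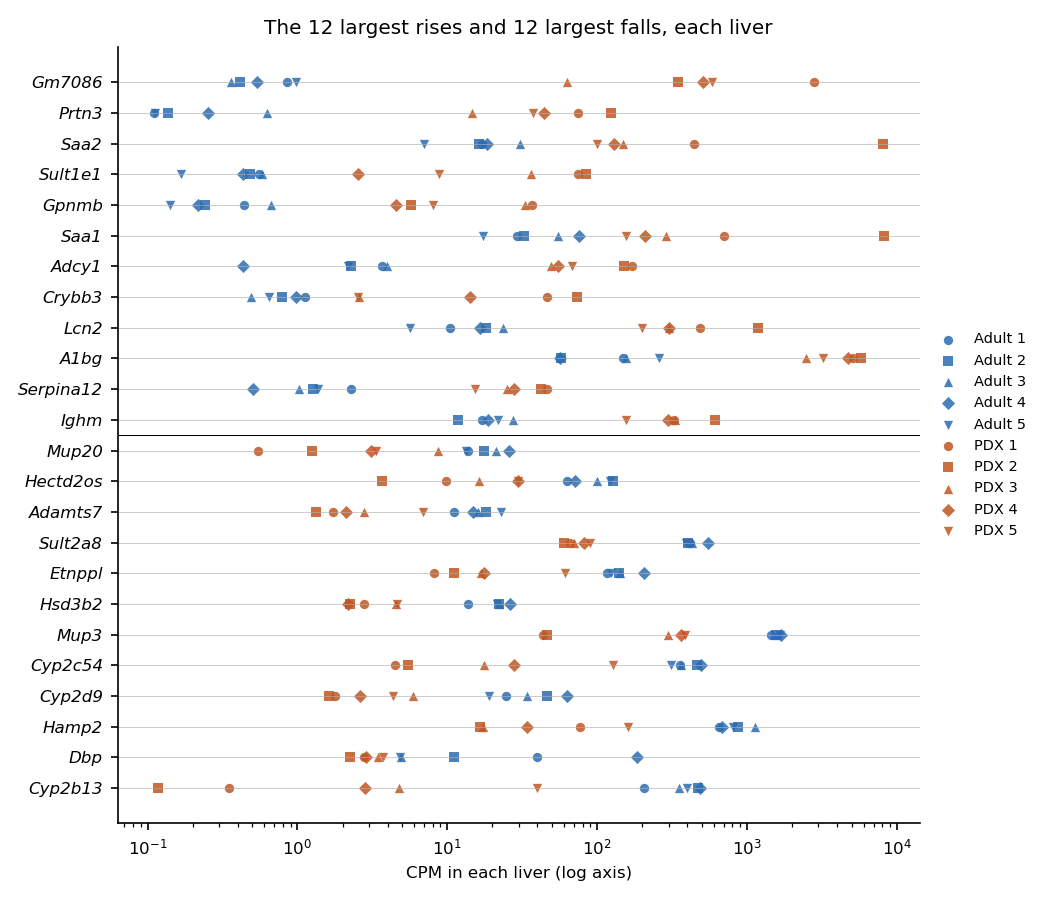
The plot gives the level (CPM, log axis) in each Adult and PDX mouse for the 12 largest rises and 12 largest falls, with 1 symbol a mouse. The genes were taken from those called without overlap at a mean log2 CPM of at least 1, so separate groups follow from the choice, as for Sult2a8 (393 to 552 CPM in Adult, 60.5 to 90.1 CPM in PDX).

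Transcripts of immune cells were higher across the lists. All 12 tested neutrophil genes rose (median log2 fold change 2.97, with 15 listed), as did 12 of 15 B cell genes (1.82), 13 of 19 plasma cell and immunoglobulin genes (2.24), 19 of 20 monocyte and lipid-associated macrophage genes (1.72) and 12 of 21 T and natural killer cell genes (1.13). Among the other members of these lists only Tox, a T cell transcription factor, was called lower. A gene could pass the low-count filter through the PDX group alone, so the shares among tested genes are partly fixed by the filter. In Old against Adult, which uses the same Adult mice, the medians were 3.33 for neutrophil, 2.29 for B cell and 2.23 for plasma cell genes. They were 1.84 for monocyte and macrophage genes and 1.51 for T and natural killer cell genes, so the rises were not particular to PDX livers. In bulk liver, more cells of a type and more RNA per cell cannot be told apart.

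Among neutrophil genes, Elane, a granule protease, measured 0, 0.0686, 0.0895, 0.036 and 0.0842 CPM in Adult and 1.48, 3.58, 1, 2.36 and 0.612 CPM in PDX, and S100a8, a calcium-binding protein of neutrophil cytosol, rose from 0.73 to 1.46 CPM to 3.12 to 13.9 CPM. Elane changed by 4.97 ± 0.65 on the log2 scale (adjusted p = 0.00041) and S100a8 by 2.67 ± 0.37 (adjusted p = 0.000605). Elane passed the low-count filter through the PDX group alone, so its separation is partly fixed by that filter. The summed level of the list was 8.37 to 14.3 CPM in Adult and 61.5 to 213 CPM in PDX. Prtn3 alone gave 14.5 to 124 CPM of the latter.

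The macrophage receptor gene Trem2 measured 0.938, 0.995, 0.895, 0.828 and 0.786 CPM in Adult and 9.32, 6.61, 6.5, 7.39 and 2.01 CPM in PDX (2.83 ± 0.34, adjusted p = 0.000281). Itgax, the integrin CD11c, rose from 1.04 to 1.88 CPM to 6.16 to 11.9 CPM (2.52 ± 0.23, adjusted p = 7.17e-05). Both had separate groups. Of 14 Kupffer cell genes 10 rose (median 0.88), among them C1qa, C1qb and C1qc, which form the first component of complement (1.38, 1.42 and 1.31), and Clec4f, a receptor particular to mouse Kupffer cells (0.78 ± 0.18, adjusted p = 0.00851). Cd163, the haemoglobin scavenger receptor, fell by 1.59 on the log2 scale, and Timd4 did not pass the test (0.42, adjusted p = 0.441).

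Ighm, the heavy chain of immunoglobulin M, measured 17.1, 11.8, 27.5, 18.7 and 21.9 CPM in Adult and 325, 616, 331, 296 and 156 CPM in PDX (4.15 ± 0.35, adjusted p = 5.08e-05). The light chain gene Igkc rose from 7.38 to 16.5 CPM to 33.9, 196, 151, 92.4 and 78.4 CPM (3.33 ± 0.42, adjusted p = 0.000344). Jchain, which joins immunoglobulin M and A chains, rose by 2.44 ± 0.54, although P1 with 2.34 CPM lay inside the Adult range of 2.16 to 4.07 CPM. Immunoglobulin and T cell receptor segments together took 7.69 to 19.3 CPM in Adult and 36.8 to 167 CPM in PDX (two-sided exact permutation test, p = 0.00794, the smallest possible). Leaving these segments out of the table gave 4525 called genes. Of the B cell genes, Blnk, an adaptor of the B cell receptor, rose by 2.24 (adjusted p = 0.000843) and Cd79b, a signaling chain of that receptor, by 1.94 (adjusted p = 0.00104). Of the T cell genes, Cd8a rose by 2.45 (adjusted p = 0.00306, or 1.84 without P3) while Cd3e reached 1.18 (adjusted p = 0.0584).

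Antigen presentation genes rose as well. All 11 MHC class II genes were called higher, with a median of 1.29, and their summed level was 181 to 264 CPM in Adult and 332 to 933 CPM in PDX. Their median in Old against Adult was 2.42, with a summed level of 46.5 to 6172 CPM in the Old mice. H2-Aa, a class II alpha chain, measured 32 to 43.7 CPM in Adult and 57.1, 65.3, 158, 70.5 and 63.9 CPM in PDX, with P3 the highest. Of the class I and immunoproteasome genes 12 of 18 rose (median 0.44), among them Psmb8, a catalytic subunit of the immunoproteasome (0.73 ± 0.08, adjusted p = 0.000211). B2m, the light chain of class I, did not pass the test (0.09, adjusted p = 0.547).

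Of 36 interferon-stimulated genes, 26 rose in PDX and none fell, and the median log2 fold change was 0.65. Zbp1, a sensor of left-handed nucleic acid, rose by 1.85 (adjusted p = 8.02e-05), Oasl2 and Gbp2 by 1.19 each, and Ifi27 by 0.95. Irf7, a transcription factor of the interferon response named after its values were seen, measured 58, 42, 70.9, 34.4 and 45.5 CPM in Adult and 67.9, 158, 87.7, 120.1 and 85 CPM in PDX (1.05 ± 0.24, adjusted p = 0.00715), and P1 overlapped the Adult group. Isg15, a ubiquitin-like protein, rose by 0.86 ± 0.26 (adjusted p = 0.0254), a call that was lost without A4, P2 or P4 (0.70 without P2). Without P4 the list's count of risen genes was 17, and without A4 it was 18. The same 36 genes had a median of 0.15 in Old against Adult, a comparison that uses the same Adult mice, and the difference between these medians was not tested.

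Chemokines and cytokines followed the same direction. Of 29 chemokine and receptor genes 20 rose (median 1.2) and 1 fell, Ccl27a (-0.70, a call lost without A1, A3, A5 or P2, with -0.61 without P2), while of 25 cytokine and NF-kB feedback genes 14 rose (0.78) and 1 fell, the interleukin 1 receptor accessory gene Il1rap (-1.64). Cxcl1, a neutrophil chemoattractant, measured 11.7, 3.84, 7.56, 9.18 and 10.4 CPM in Adult and 126, 110.4, 38.3, 39.3 and 84.8 CPM in PDX, without overlap (3.22 ± 0.39, adjusted p = 0.000305). Ccl5, a T cell attractant, rose by 2.47, Ccl2, a monocyte attractant, by 1.68, and the cytokine Tnf by 1.78 (adjusted p = 0.0199, or 1.19 without P3). Members of the NF-kB pathway such as Nfkbiz (1.27), Nfkb2 (0.82), Traf1 (1.87) and the adhesion molecule Icam1 (1.09) rose too.

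The acute-phase proteins, made by hepatocytes, rose in most cases. Of 24 genes 19 rose, none fell, and the median was 1.46, against 1.18 in Old against Adult. Saa1 and Saa2 encode serum amyloid A, an apolipoprotein that appears in plasma during inflammation, and they are close copies of each other next to each other on chr7. Their promoters are shown because 2 of the largest rises in the table belong to them and because the letters are nearly the same: 287 of 301 aligned positions were identical (95.3%). The sequences come from RefSeq (GRCm38.p6) and run from 250 bases before the annotated start to 50 bases after it, 5′ to 3′ on the gene's strand. Saa1 lies at chr7:46742931-46743230 on the minus strand and Saa2 at chr7:46751583-46751882 on the plus strand. Capitals mark a match to TTGCNNAA, letters that C/EBP factors can bind.
Saa1: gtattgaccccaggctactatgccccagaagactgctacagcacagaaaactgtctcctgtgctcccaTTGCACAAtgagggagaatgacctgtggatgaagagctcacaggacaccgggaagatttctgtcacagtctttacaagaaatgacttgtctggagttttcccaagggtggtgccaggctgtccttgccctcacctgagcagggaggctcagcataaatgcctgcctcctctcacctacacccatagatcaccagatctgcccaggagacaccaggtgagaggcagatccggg
Saa2: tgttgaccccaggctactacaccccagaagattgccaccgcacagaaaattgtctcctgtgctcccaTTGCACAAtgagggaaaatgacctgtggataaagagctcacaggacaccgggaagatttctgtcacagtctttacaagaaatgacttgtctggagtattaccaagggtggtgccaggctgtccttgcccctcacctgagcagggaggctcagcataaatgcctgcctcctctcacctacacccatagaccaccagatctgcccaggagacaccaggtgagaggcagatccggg

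The match begins at base 69 in Saa1 and at base 68 in Saa2. Searched on both strands, TTGCNNAA was in the promoters of 12 of 19 acute-phase genes that had an entry (63.2%), in 12.2% of all 27025 promoters and in 10.8% of those of the tested genes. Among genes called higher the share was 14.5% and among genes called lower 12.6%. A match describes the letters and not a bound factor.

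Saa1 measured 29, 32.4, 54.6, 75.1 and 17.4 CPM in Adult and 707, 8162, 286, 207 and 156 CPM in PDX. Saa2 measured 17.1, 16.2, 30.8, 18.4 and 7.04 CPM in Adult and 445, 8145, 148, 130.4 and 99 CPM in PDX. P2 was by far the highest for both and all PDX mice exceeded all Adult mice. The log2 fold changes were 5.51 ± 1.19 for Saa1 (adjusted p = 0.00514) and 6.65 ± 1.39 for Saa2 (adjusted p = 0.00447), and without P2 they were 3.03 and 3.53, still called. Because the copies are so alike, how their reads divide between them is uncertain.

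Lcn2, the iron-binding lipocalin 2, measured 10.5, 18, 23.5, 16.5 and 5.61 CPM in Adult and 483, 1177, 301, 301 and 199 CPM in PDX (5.06 ± 0.56, adjusted p = 0.00021, or 4.45 without P2). Orm2, an orosomucoid, rose from 20.5 to 40 CPM to 129, 1041, 96.6, 151 and 197 CPM (3.41 ± 0.64, adjusted p = 0.00255, or 2.24 without P2). Rises were also called for Saa3 (2.69), the haemoglobin binder Hp (1.84), the pentraxin Apcs (1.75) and Orm1 (1.75). Complement and coagulation factors were more divided, with 18 of 42 higher and 4 lower (median 0.22, with 2 lower when A2 or A4 was left out). Fgb, a chain of fibrinogen, rose by 0.92 and the anaphylatoxin receptor C5ar1 by 1.83, whereas C3 (0.42, adjusted p = 0.0523) and prothrombin, F2 (0.03), did not pass the test.

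Genes that make or break down lipid mediators, the class to which PDX belongs, moved in both directions. Of 31 tested genes 16 rose and 4 fell (median 0.71). Alox5, the 5-lipoxygenase of leukocytes, measured 0.166, 0.172, 0.134, 0.144 and 0.281 CPM in Adult and 0.78, 0.59, 0.813, 0.704 and 0.51 CPM in PDX (1.87 ± 0.28, adjusted p = 0.000847). Ptges, which makes prostaglandin E, rose from 0.248 to 0.54 CPM to 1.41 to 2.84 CPM (2.53 ± 0.28, adjusted p = 0.000192), and Ptgis, the prostacyclin synthase, by 1.87 ± 0.24. These genes were low in both groups but did not overlap between them. Neither Alox5 nor Ptges would have passed the low-count filter through the Adult group, so their separation is partly fixed by that filter.

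Among the members that fell were 2 enzymes that inactivate lipid mediators. Hpgd, which oxidises prostaglandins and resolvins, measured 173, 192, 185, 179.7 and 184 CPM in Adult and 78, 75.3, 104, 98.1 and 102 CPM in PDX (-1.0 ± 0.10, adjusted p = 0.000117). Ephx2, the soluble epoxide hydrolase, measured 526, 617, 656, 584 and 624 CPM in Adult and 279.5, 207, 303, 282 and 375 CPM in PDX (-1.06 ± 0.14, adjusted p = 0.000397). Both groups were narrow and apart. Ptgds, the prostaglandin D synthase, also fell (-1.41 ± 0.28, adjusted p = 0.00302).

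**Figure D4:**
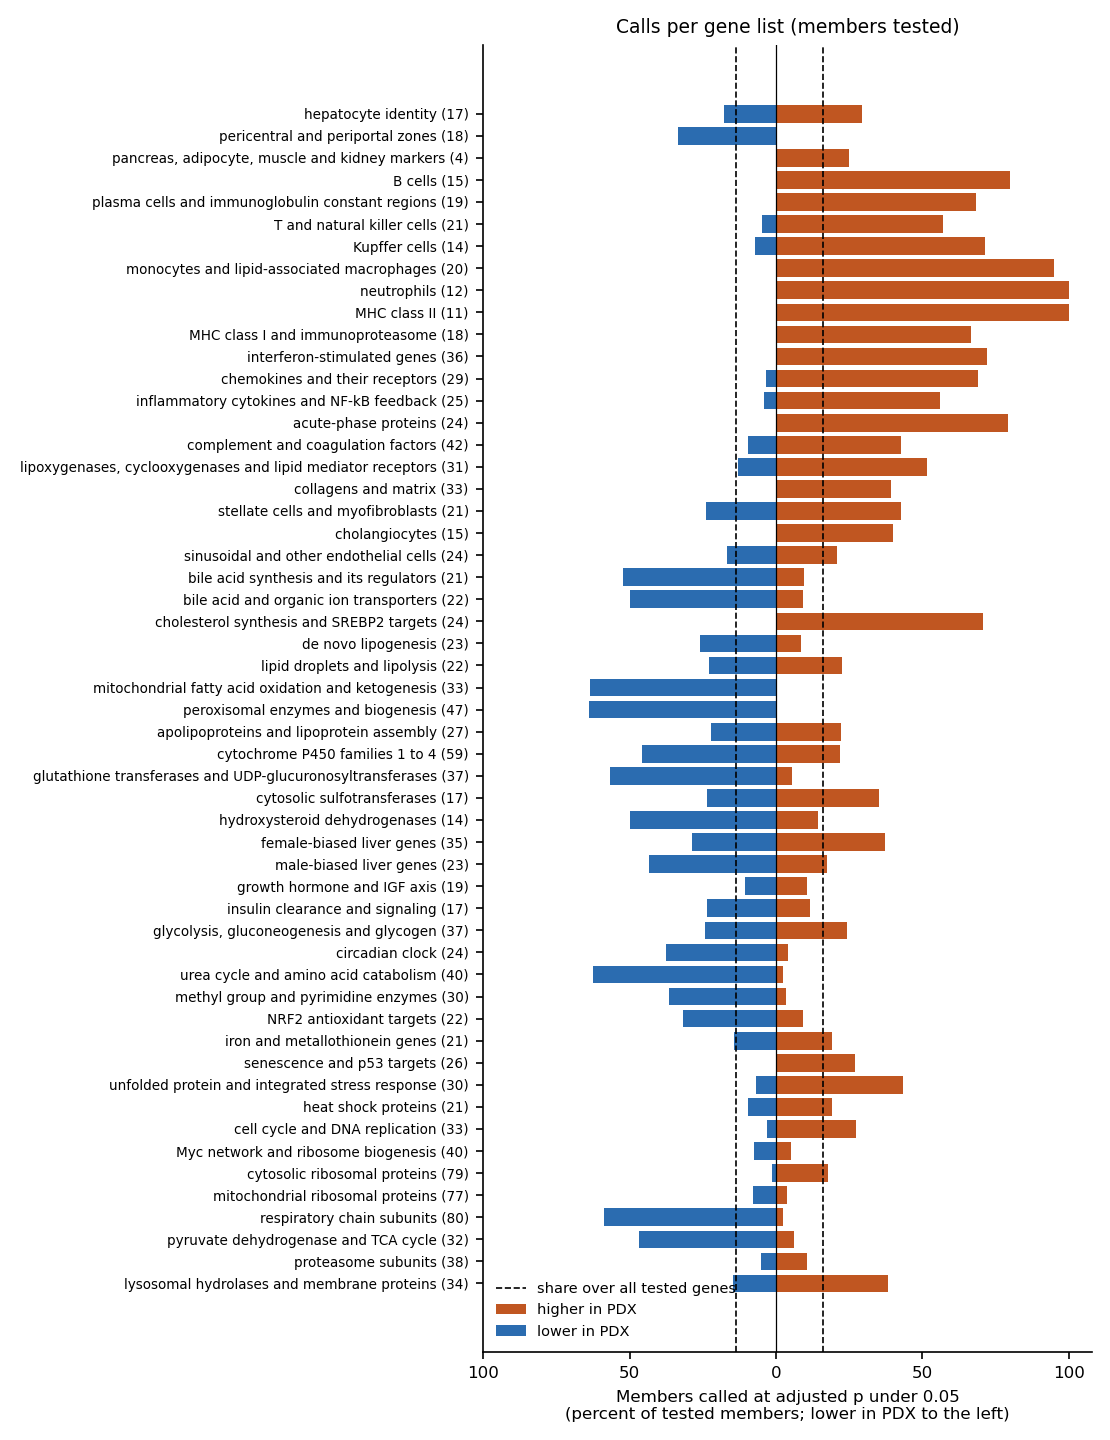
For each gene list the plot gives the percent of its tested members called higher and lower in PDX than in Adult, beside the shares over all tested genes (16.1% and 13.5%). Immune and acute-phase lists lie on the side of higher genes (12 of 12 neutrophil genes), and lists of oxidation and amino acid catabolism on the side of lower genes (25 of 40).

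Connective tissue genes rose in part. Of 33 collagen and matrix genes 13 rose and none fell (median 0.46), and the count was 8 without A2. Col15a1, a basement membrane collagen, rose by 1.63 (adjusted p = 0.000522), Nid1, which links laminin to collagen, by 1.59 and the proteoglycan gene Bgn by 0.76. Col1a1, the main chain of fibrillar collagen, measured 9.78 to 12.8 CPM in Adult and 21.4, 13.8, 63.4, 16.7 and 16.6 CPM in PDX (1.22 ± 0.38, adjusted p = 0.0291). P3 was well above the others, the value without it was 0.60, and the call was lost without A2, A3 or A4. Col3a1 did not pass the test (0.60, adjusted p = 0.158).

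The 21 stellate cell genes divided, with 9 higher and 5 lower. Vim, the filament protein vimentin, rose by 1.11. In contrast, Lrat, which stores retinol as ester in quiescent stellate cells, fell by 0.85 on the log2 scale, and Postn, a matricellular protein, fell to 5.27 to 9.47 CPM from 17.5 to 19.6 CPM (-1.30 ± 0.15, adjusted p = 0.000235). Leaving out A4, A5 or P3 left 5 stellate genes higher. Bile duct genes rose in 6 of 15 cases, Cd24a (1.35) and Sox9 (0.99) among them, while the defining Krt19 (0.34) and Epcam (0.38) did not pass the test. Endothelial genes were called in both directions, 5 higher and 4 lower of 24, with a median of -0.03. Leaving out A1, A2, A4, P3 or P5 left 3 endothelial genes higher, and leaving out A3, A5, P2 or P4 left 2 lower.

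Markers that define hepatocytes were abundant in every liver. Alb, serum albumin, had 104041 to 112886 CPM in Adult and 88569.6 to 142459 CPM in PDX (0.12 ± 0.14, adjusted p = 0.558), and the regulator Hnf4a had 687 to 933 and 549 to 902 CPM (-0.13, adjusted p = 0.538). Of 17 identity genes 5 rose, the secreted proteins Trf (0.86), Apoa1 (0.75), Ahsg (0.54) and Fgb (0.92) among them, and 3 fell. Cebpa, a hepatocyte transcription factor named after its values were seen, had 375 to 614 CPM in Adult and 195, 231, 304, 343 and 411 CPM in PDX (-0.71 ± 0.20, adjusted p = 0.018), and P5 overlapped the Adult group. Of 17 genes particular to pancreas, fat, muscle and kidney 4 passed the filter, and the pancreatic elastase gene Cela2a rose (3.09 ± 0.70, or 2.10 without P5), with 13.5 CPM in P5 and 0.938 to 4.29 CPM in the other PDX mice.

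Zonation genes fell where they were called, in 6 of 18 cases. Cyp2e1, the ethanol-oxidising P450 of cells near the central vein, measured 6698, 5660.5, 5772, 7465 and 5935 CPM in Adult and 2211, 1300.5, 2346, 1771 and 2872 CPM in PDX (-1.59 ± 0.19, adjusted p = 0.000273). Oat, the pericentral ornithine aminotransferase, fell by 1.70 on the log2 scale, and Gls2, the periportal glutaminase, fell by 1.06. Glul, glutamine synthetase of the innermost pericentral cells (-0.17, adjusted p = 0.389), and the periportal Cyp2f2 (-0.01, adjusted p = 0.975) did not pass the test. The called falls thus included markers of both zones.

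Bile acid synthesis genes fell in 11 of 21 cases and rose in 2 (median -0.35). Cyp7a1, the rate-limiting enzyme of the classic pathway, varied about as much within as between groups, with 7.84, 45.9, 45.8, 145 and 84.6 CPM in Adult and 86.4, 62.7, 21.2, 43.7 and 32.9 CPM in PDX (-0.42 ± 0.58, adjusted p = 0.631). Cyp8b1, the 12-alpha-hydroxylase that directs synthesis to cholic acid, rose without overlap from 92.7, 97.9, 79, 101 and 107 CPM to 244, 274, 153, 364 and 153 CPM (1.31 ± 0.22, adjusted p = 0.00137). The other gene that rose was Cyp7b1 of the alternative pathway (0.89), a call that was lost when any 1 mouse other than P3 or P5 was left out (0.54 without P1). Akr1d1, a reductase of the bile acid nucleus, fell by 0.88 on the log2 scale, Slc27a5, which activates bile acids for conjugation, fell by 0.69, and Akr1c6 fell by 0.53.

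Transporters of bile acids and organic ions fell in 11 of 22 cases and rose in 2 (median -0.44). Slco1b2, an uptake carrier on the sinusoidal side, measured 986, 891, 1047, 1242 and 978 CPM in Adult and 399, 429, 424, 380.4 and 541 CPM in PDX (-1.24 ± 0.12, adjusted p = 9.25e-05). Slco1a1, a male-biased carrier, fell by 6.08 on the log2 scale (adjusted p = 0.000218). The sodium-dependent uptake carrier Slc10a1 (-0.67 ± 0.13), the bile salt export pump Abcb11 (-0.52 ± 0.09) and the conjugate pump Abcc2 (-0.77 ± 0.09) fell as well, so carriers of uptake and of export were both among the lower genes. Those that rose were Slc10a2, the bile acid carrier better known from ileum and bile ducts (2.72, adjusted p = 0.000223), and Slc22a7, an organic anion carrier (2.87).

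Cholesterol synthesis stood on the other side. Of 24 genes of this pathway and of its regulator SREBP2, 17 rose and none fell, with a median of 0.93. Hmgcs1 encodes an early enzyme of the pathway, and its promoter is shown because it holds both letters searched for SREBP2 targets. It covers chr13:119690101-119690400 on the plus strand (RefSeq, GRCm38.p6), and capitals mark TCACNCCAC, the sterol regulatory element, from base 114, and CCAAT boxes, written ATTGG since they lie on the opposite strand, from bases 14, 75, 206 and 261.
Hmgcs1: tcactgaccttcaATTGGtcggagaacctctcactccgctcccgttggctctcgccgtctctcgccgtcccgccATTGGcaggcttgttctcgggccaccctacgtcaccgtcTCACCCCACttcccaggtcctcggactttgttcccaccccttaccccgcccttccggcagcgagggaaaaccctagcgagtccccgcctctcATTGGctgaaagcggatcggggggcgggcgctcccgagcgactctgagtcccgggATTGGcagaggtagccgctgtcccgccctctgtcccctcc

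CCAAT was in 16 of the 17 promoters of the list that had an entry (94.1%) and in 41.1% of all promoters, on either strand. The sterol element in this spelling was in 1 of the 17 (5.88%), that of Hmgcs1, and in 1.44% of all promoters.

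Hmgcs1, named after its values were seen, measured 403, 784, 472, 427 and 711 CPM in Adult and 1992, 1329.8, 1346, 1933 and 537 CPM in PDX (1.35 ± 0.32, adjusted p = 0.00804). Sqle, squalene epoxidase, measured 113, 186, 119, 137 and 135 CPM in Adult and 384, 365, 281, 357 and 183 CPM in PDX (1.18 ± 0.20, adjusted p = 0.00139). In each gene P1 to P4 were above every Adult mouse and P5 was inside the Adult range, and the same was so for Lss, the lanosterol synthase (1.40 ± 0.28). Mvd, the mevalonate decarboxylase, had 28.6 to 74.9 CPM in Adult and 183, 134, 122, 187 and 80.1 CPM in PDX and was 1 of only 2 members without overlap. Over all tested genes the groups did not overlap for 19.9%. Srebf2 itself rose by 0.49 ± 0.11.

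**Figure D5:**
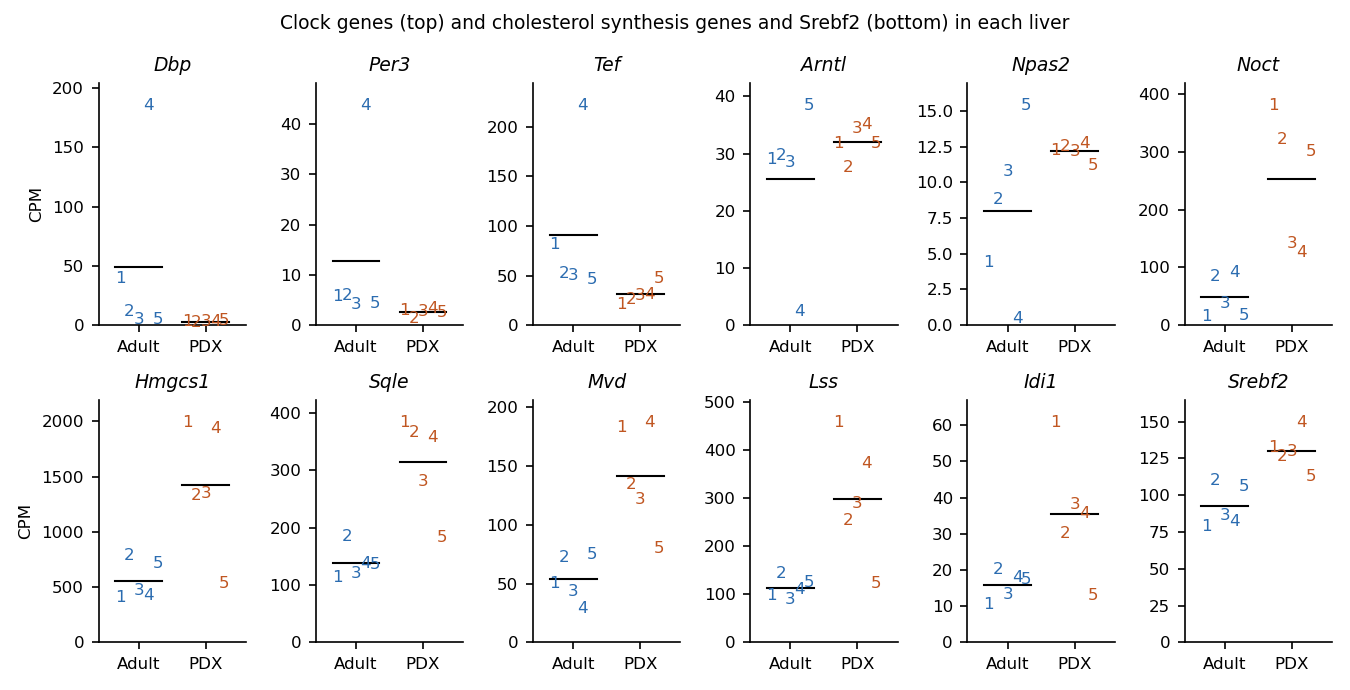
The panels give the level (CPM, linear axis from 0) of circadian clock genes (top) and of cholesterol synthesis genes and Srebf2 (bottom), with each number the mouse of that number and each line the group mean. A4 stands apart from the other Adult mice for the clock genes (Dbp 186 CPM against 4.83 to 39.8 CPM), and P5 lies with the Adult mice for Sqle (183 CPM, Adult 113 to 186 CPM).

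Fatty acid synthesis did not follow cholesterol synthesis. Of 23 lipogenic genes 2 rose and 6 fell, or 3 without A2 or P3. Scd1, the main desaturase of liver, fell by 1.69 on the log2 scale (adjusted p = 0.00691) and Dgat1 by 0.38, while Scd2 rose by 0.67 ± 0.16 and Pnpla3, a lipid droplet enzyme, by 2.04 ± 0.50. Fasn, the fatty acid synthase, did not pass the test (0.30, adjusted p = 0.263). Srebf1, named after its values were seen, measured 225, 740.0, 519.7, 415 and 712 CPM in Adult and 282, 264, 229.9, 184 and 369.8 CPM in PDX (-0.97 ± 0.29, adjusted p = 0.0246), and A1 lay within the PDX range. Its call was lost without A2, A5, P3 or P4 (-0.82 without A2). Lipid droplet genes were called in both directions, with 5 of 22 higher, such as the lipase Lpl (1.40), and 5 lower, such as Vldlr (-1.64). The droplet coat gene Plin2 did not pass the test (-0.04, adjusted p = 0.924). Of 27 genes of apolipoproteins and lipoprotein assembly 6 rose, among them Apoa4 (2.20, adjusted p = 0.0029), and 6 fell. Apoa5, which promotes clearance of triglyceride from plasma, had 1081, 1088, 1100.4, 1714 and 1218 CPM in Adult and 671, 501, 703, 321 and 641 CPM in PDX, without overlap (-1.13 ± 0.21, adjusted p = 0.00232).

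Fat oxidation genes fell wherever they were called. Of 33 genes of mitochondrial oxidation and ketogenesis 21 fell and none rose (median -0.47, against -0.46 in Old against Adult). Separate groups were found for 21 of the 33, against 19.9% of all tested genes. Acsl1, which activates long fatty acids, fell by 1.24 on the log2 scale (adjusted p = 0.000108) and Acsm3 by 1.07. Cpt1a, which admits fatty acids to mitochondria, did not pass the test (-0.40, adjusted p = 0.159). Of 47 peroxisomal genes 30 fell and none rose (median -0.35, against -0.50 in Old against Adult). Acaa1b, a peroxisomal thiolase with a close copy, had 1316, 1110.2, 1282, 1039 and 1450.1 CPM in Adult and 143, 172, 387, 192 and 468 CPM in PDX (-2.19 ± 0.31, adjusted p = 0.000644). Catalase, Cat, had 2502 to 2828 CPM in Adult and 1501 to 1803 CPM in PDX (-0.74 ± 0.08, adjusted p = 0.000211). Ehhadh, a bifunctional enzyme of peroxisomal oxidation, fell by 1.54.

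Genes of mitochondrial energy production fell in part. Of 80 respiratory chain subunits 47 fell and 2 rose, with a median of -0.24, against -0.34 in Old against Adult. Separate groups were found for 47 of the 80, against 19.9% of all tested genes. Sdha, the flavoprotein of succinate dehydrogenase, measured 701, 718, 736, 713 and 712 CPM in Adult and 475, 447, 462, 484 and 543 CPM in PDX (-0.57 ± 0.07, adjusted p = 0.000428). The list's background of 13.5% called lower stands against 47 of 80 here. Of 32 pyruvate dehydrogenase and citrate cycle genes 15 fell and 2 rose (median -0.23), while citrate synthase, Cs, did not pass the test (-0.11, adjusted p = 0.519). Mitochondrial ribosomal proteins were called in 11.7% of cases, against 29.6% of all tested genes, with 3 higher (0 without A4) and 6 lower (14 without P5) of 77.

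Amino acid catabolism was lower in the same way, with 25 of 40 genes fallen, 1 risen (Sdsl, 0.52, a call lost when any mouse other than P3 was left out, with 0.38 without P2) and a median of -0.51. Oat measured 1507, 1645, 1588, 2075 and 1383 CPM in Adult and 485, 338, 483, 515 and 695 CPM in PDX (-1.70 ± 0.18, adjusted p = 0.000144). Tdo2, which opens the tryptophan ring, measured 1280.3, 1389, 1713, 1973 and 1072 CPM in Adult and 441, 537, 488, 538 and 741 CPM in PDX (-1.44 ± 0.18, adjusted p = 0.000353). Both had separate groups. The median of the 40 genes in Old against Adult was -0.54. Of the urea cycle, Otc fell by 0.66 on the log2 scale and Cps1 by 0.65, and Arg1 did not pass the test (-0.17, adjusted p = 0.443). Among 30 methyl group and pyrimidine genes 11 fell and 1 rose, Cad, which starts pyrimidine synthesis. Tymp, the thymidine phosphorylase, fell from 133 to 188 CPM to 25.5 to 45.3 CPM (-2.27 ± 0.17, adjusted p = 2.93e-05), and the methyltransferase Inmt from 659 to 858 CPM to 106 to 283 CPM (-2.23 ± 0.24, adjusted p = 0.000178).

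Of 59 cytochrome P450 genes of families 1 to 4, 27 fell and 13 rose (median -0.54). Of 37 glutathione transferases and UDP-glucuronosyltransferases 21 fell and 2 rose (median -0.54). Ugt2b1 fell by 1.39 on the log2 scale (adjusted p = 5.3e-05), Ugt1a6b by 1.0 and Ugt3a1 by 1.03. Ugt2b37, named after its values were seen, rose, with 8.08, 2.92, 1.79, 1.44 and 1.4 CPM in Adult and 133, 159.9, 37.4, 33.9 and 4.46 CPM in PDX (4.53 ± 0.87, adjusted p = 0.00278, or 5.29 without A1). P5 overlapped the Adult group there. Nr1i3, the nuclear receptor CAR that controls many of these enzymes, was also named after its values were seen and fell from 263 to 517 CPM to 122 to 244 CPM (-1.03 ± 0.21, adjusted p = 0.00405).

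The cytosolic sulfotransferases split sharply, with 6 of 17 higher and 4 lower. Sult2a6 had 1166 counts over the 5 Adult libraries and 3 counts over the 5 PDX libraries, an Adult level 364 times that of PDX (exact 95% interval 124 to 1769, counting error only). Sult2a4 fell from 4.97, 2.51, 9.31, 1.87 and 7.32 CPM to 0.195, 0.236, 0.281, 0.246 and 0.374 CPM (-4.25 ± 0.48, adjusted p = 0.000217). In the opposite direction, the close copy Sult2a1, which sulfates dehydroepiandrosterone, measured 83.9, 28.4, 225, 11.1 and 208 CPM in Adult and 506, 409.9, 505, 500.4 and 660.2 CPM in PDX (2.22 ± 0.64, adjusted p = 0.0221). A2 and A4 were the lowest Adult mice for Sult2a1, and its call was lost without A1 (2.13, adjusted p = 0.0508). The Sult2a genes are near-identical copies in a cluster on chr7, so assignment of reads among them is uncertain.

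Several of these genes differ between the sexes in mouse liver. Of 35 female-biased genes 13 rose and 10 fell, and the median was 0.02. Those that rose included A1bg, Sult2a1 and, named after their values were seen, the transcription factor Cux2 (45.8, 36.7, 21.1, 18.7 and 29 CPM in Adult, 87.3, 112, 47.4, 81.5 and 53.5 CPM in PDX, 1.33 ± 0.28) and Cyp3a16 (211, 10.9, 199, 12.2 and 171 CPM in Adult, 744, 702, 621, 562 and 338 CPM in PDX, 2.30 ± 0.73). Cyp3a16 again had A2 and A4 far below the other Adult mice, and its call was lost without A5, P1, P2, P3 or P4 (2.20 without P1). Those that fell included Cyp2b13 and Cyp2c40 (-1.53 ± 0.12, adjusted p = 4.26e-05). Of 23 male-biased genes 4 rose (2 without A2) and 10 fell (median -0.93), among the latter Slco1a1, Hsd3b2 and Keg1 (-1.50 ± 0.16). Hydroxysteroid dehydrogenases fell in 7 of 14 cases, including Hsd17b11 (-1.09).

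Genes of the growth hormone axis were called in 21.1% of cases and those of insulin handling in 35.3%, against 29.6% of all tested genes. Of 19 genes of the growth hormone and IGF axis 2 rose and 2 fell, and Igf1 (-0.17, adjusted p = 0.243) and Ghr (-0.09, adjusted p = 0.797) did not pass the test. Of 17 genes of insulin clearance and signaling 2 rose and 4 fell. Ide, the insulin-degrading enzyme, rose by 0.88 (adjusted p = 7.51e-05), while Ceacam1, which takes insulin up into hepatocytes, fell by 0.28 on the log2 scale (adjusted p = 0.0291). Ceacam1 lost its call without A1, A2, A3, A5, P1 or P3 (-0.23 without P3). Irs1, the docking protein of the insulin receptor, measured 37.2, 33.2, 29.6, 30.7 and 37.3 CPM in Adult and 15.1, 9.56, 19.5, 16.8 and 21 CPM in PDX (-1.03 ± 0.17, adjusted p = 0.00141), and the receptor Insr fell by 0.34 (adjusted p = 0.0152). In sugar metabolism 9 of 37 genes rose, among them Pkm, the pyruvate kinase of nonhepatocyte cells (1.24 ± 0.18), and Ldha (0.69 ± 0.09), and 9 fell. Pck1, an enzyme of glucose synthesis, did not pass the test (-0.18, adjusted p = 0.751).

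Of 24 clock genes 9 fell and 1 rose (median -0.45). The clock runs through activators such as Arntl and Npas2 and repressors such as the Per genes, whose levels swing over the day, and Dbp, Tef and Hlf bind D-box letters in their targets. The Per3 promoter (chr4:151044616-151044915, minus strand, RefSeq, GRCm38.p6) is shown because it holds TTATGNAA, the D-box letters searched, at bases 46 and 93, in capitals.
Per3: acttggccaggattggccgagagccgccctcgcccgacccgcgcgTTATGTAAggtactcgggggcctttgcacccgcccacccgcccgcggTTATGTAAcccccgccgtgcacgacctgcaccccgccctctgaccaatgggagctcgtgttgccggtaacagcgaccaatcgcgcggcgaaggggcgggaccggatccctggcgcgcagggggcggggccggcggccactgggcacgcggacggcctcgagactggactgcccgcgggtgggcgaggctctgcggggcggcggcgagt

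These letters were in 3 of 19 clock promoters (15.8%), in 3.99% of all promoters and in 2.79% of those of tested genes. CACGTG, the E-box that Arntl binds, was in 5 of the 19 (26.3%) and in 8.09% of all promoters.

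Dbp measured 39.8, 11.1, 4.92, 186 and 4.83 CPM in Adult and 2.77, 2.24, 3.44, 2.89 and 3.71 CPM in PDX (-4.03 ± 0.98, adjusted p = 0.00986). Per3, named after its values were seen, measured 5.77, 5.97, 4.12, 43.8 and 4.24 CPM in Adult and 2.96, 1.3, 2.81, 3.38 and 2.52 CPM in PDX (-2.29 ± 0.68, adjusted p = 0.0248). The PDX mice were narrow and below every Adult mouse, and A4 was far above the other Adult mice. Without A4 the changes were -2.34 for Dbp and -0.95 for Per3, both still called, and Per3 lost its call without P2 (adjusted p = 0.0571). Arntl was 2.41 CPM in A4 against 28.4 to 38.5 CPM in the other Adult mice and 27.6 to 35 CPM in PDX, and it did not pass the test (0.33, adjusted p = 0.632). Cry2 (-0.74 ± 0.17), Hlf (-0.88 ± 0.15) and the poly(A)-removing enzyme Noct (2.38, the member that rose) were called. Per1 (-0.91, adjusted p = 0.297) was not. With A4 left out 9 clock genes were called lower, and with P2 left out 5. The hour of death of each mouse is not given, and its part in these values was not tested.

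Stress pathways moved unequally. Of 30 genes of the unfolded protein and integrated stress response 13 rose and 2 fell (median 0.30). Chaperones of the endoplasmic reticulum led them, with Sdf2l1 (1.85 ± 0.25), Pdia6 (1.17), Calr (1.16), Pdia3 (0.87) and Hspa5 (0.74 ± 0.18, adjusted p = 0.00991), whereas Ddit3, an inducer of cell death, did not pass the test (0.31, adjusted p = 0.258). NRF2 antioxidant targets fell in 7 of 22 cases and rose in 2. Gclc, the rate-limiting enzyme of glutathione synthesis, fell by 1.03 ± 0.18 on the log2 scale, and Hmox1, which breaks down haem, rose by 1.08 ± 0.24. Iron and metallothionein genes were called in 33.3% of cases, near the 29.6% of all tested genes. Of 21 such genes 4 rose, among them the copper oxidase Cp (1.49), transferrin (Trf) and Mt1 (1.35 ± 0.37), and 3 fell. Without P3, 7 of them rose. Heat shock proteins were near the background, with 4 higher and 2 lower of 21, and 1 or 2 higher without A1, A3, A4, P1, P4 or P5.

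Senescence and p53 target genes rose in 7 of 26 cases and fell in none (median 0.39). The share called was 26.9%, near the 29.6% of all tested genes. Cdkn2a, which encodes the cell cycle inhibitor p16, measured 0.193, 0.137, 0.224, 0.18 and 0.393 CPM in Adult and 0.702, 1.26, 2.06, 2.71 and 0.714 CPM in PDX, low but without overlap (2.69 ± 0.46, adjusted p = 0.00152). It passed the low-count filter through the PDX group, so its separation is partly fixed by that filter. Cdkn1a, which encodes p21, did not pass the test (1.54 ± 0.62, adjusted p = 0.081). Of 33 cell cycle genes 9 rose and 1 fell, Tk1, and the count of rises was 4 or 5 when A4, A5, P3 or P4 was left out. The share of cell cycle genes called was 30.3%, also near that of all tested genes. Mki67, a marker of dividing cells of any type, rose from 1.19 to 2.21 CPM to 3.2, 7.75, 6.63, 6.41 and 3.13 CPM (1.72 ± 0.29, adjusted p = 0.0015).

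Genes of the Myc network and ribosome assembly were called in 12.5% of cases and cytosolic ribosomal proteins in 19.0%, against 29.6% of all tested genes. Of 79 cytosolic ribosomal proteins 14 rose and 1 fell (median 0.16), a count of rises that went to 6 without A3 or A4, 7 without P1, 9 without A5 or P3 and 24 without P2, with Rplp0 at 172 to 197 CPM in Adult and 224 to 265 CPM in PDX (0.42 ± 0.07). Of 40 genes of the Myc network and ribosome assembly 2 rose and 3 fell. Myc measured 2.68, 11.2, 2.73, 4.97 and 4.6 CPM in Adult and 7.61, 6.34, 7.85, 10.1 and 4.49 CPM in PDX and did not pass the test (0.48 ± 0.37, adjusted p = 0.356). Lysosomal genes rose in 13 of 34 cases and fell in 5 (3 without A3), and Ctsz (0.72 ± 0.08, adjusted p = 0.000154) was among those that rose, while Lamp1 (-0.02, adjusted p = 0.88) did not pass the test. Proteasome subunits were called in 15.8% of cases, under the 29.6% of all tested genes. Of 38 subunits 4 rose, among them the inducible Psmb8, Psmb9 and Psmb10, and 2 fell.

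The 5 PDX mice did not move equally far from Adult. Over the 1165 genes at least 2-fold higher, the median log2 distance of a mouse from the Adult mean was 1.33 in P1, 1.52 in P2, 1.71 in P3, 1.57 in P4 and 0.952 in P5. Over the 257 genes at least 2-fold lower it was -1.59, -1.68, -1.27, -1.31 and -0.904 in the same order. P5 was nearest to Adult in both. These values describe mice that helped to choose the genes. The Old mice, which did not, ranged from 0.520 to 2.79 and from -1.78 to -0.488.

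The same 10 mice had physical measurements in the labels. After adjustment over 6 measures, 5 differed between the groups by two-sided exact permutation tests with 5 mice a group. The mean weekly change in body weight was 0.986 ± 0.204% in Adult (SD) and -0.545 ± 0.417% in PDX (exact test, adjusted p = 0.0159), grip force was 172.7 ± 12.6 and 147.8 ± 14.3 g (exact test, adjusted p = 0.0159), and the frailty index was 0 in all Adult mice and 0.186 ± 0.0754 in PDX (exact test, adjusted p = 0.0159). Voluntary running was 3.78 ± 2.72 km per day in Adult and 0.865 ± 0.318 in PDX (exact test, adjusted p = 0.0357), and treadmill distance was 89.5 ± 14.5 and 59.7 ± 16.4 m (exact test, adjusted p = 0.0381). Walking speed was 15.2 ± 2.77 and 14.4 ± 3.71 rpm (exact test, adjusted p = 0.738). The treadmill call was lost when A1, A2, A3, P2, P4 or P5 was left out, with differences from -35.5 to -25.2 m over all 10 omissions, and the running call was lost when any PDX mouse was left out (-3.64 to -2.05 km per day). By label, 5 Adult mice were robust, whereas 2 PDX mice were frail, 2 prefrail and 1 robust.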

How the data were processed

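Liver poly(A) RNA of 15 mice was sequenced as paired 50-base reads. Per the labels and the study's methods, the authors aligned reads to mm10 with STAR 2.6.0c and counted unique, properly paired fragments on the gene's strand with featureCounts (Subread 1.6.2, Ensembl annotation). The deposited count table, with mitochondrial genes left out, was used here, and the deposited log2-scale variance-stabilised values, made by the authors with DESeq2 1.23.10, served only for 1 alternative measure of distance. Symbols and positions came from GRCm38 annotation and promoter sequences from RefSeq.

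The 5 PDX and 5 Adult mice were fitted alone with edgeR 4.0.16 in R 4.3.3, by its quasi-likelihood test with Benjamini-Hochberg adjustment at 0.05. TMM factors scaled the libraries and genes with low counts were filtered (minimum count 10, total 15). The filter worked by group, so a gene could pass through either group alone. The test was checked on simulated data. Levels were compared between mice as log2 CPM with a prior count of 2. Single values were compared by two-sided exact permutation tests. Distance values of a group share mice, so their p-values are only a guide. The smallest p that 5 against 5 allows is 0.00794. The study housed its mice in groups, but the labels do not say which of them shared a cage or litter. Each mouse was taken as a separate animal.

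The comparison, the gene lists and the tests were chosen with earlier results of these data known. Genes were named by rule. Among called genes whose groups did not overlap, the 12 largest rises and 12 largest falls were taken above a floor of 1 (mean log2 CPM), then the 6 largest of each above a floor of 6 and the 3 smallest p-values. From each of 54 lists came its anchor genes and up to 4 called members by p (all where at most 5 were called), with Myc, Ceacam1 and Ide. Besides those so described in the text, Cd163, Tox, Ccl27a, Il1rap, Cyp7b1, Slc22a7, Sdsl and Cad were named after their values were seen, as the exceptions of their lists. Some genes that the rule picked are not reported here. Alternatives were DESeq2 1.42.0, other scaling, filters and depth, all 15 mice in 1 fit, a block on the replicate number and leaving out each mouse. Counts of a share or a ratio carry counting error only.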

Additional observations from a re-analysis of the deposited data

Results flagged for a closer look

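In each group of 5, a mouse was looked for whose gap to its nearest neighbour exceeded Dixon's 95% value (0.71) as a share of the group's range. For genes the gap and the range were taken on the log2 scale, although the levels below are printed as CPM. Physical measures were taken in their own units. Of 77 groups examined, over 29 leading genes, the depth measures and the physical measures, 5 held such a mouse, and chance flags about 1 in 20 groups. Adcy1 was low in Adult mouse A4, at 0.432 CPM against 2.16 to 3.94 CPM in the other Adult mice. Sult1e1 was low in A5, at 0.168 CPM against 0.432 to 0.582 CPM. Sult2a8 was high in A4, at 552 CPM against 393 to 431 CPM, which lies farther from the PDX mice. Walking speed was 21 rpm in PDX mouse P1 and 12 to 13 rpm in the other PDX mice. Grip force was 122 g in P5 and 151.9 to 158 g in the other PDX mice.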

How the results depend on the processing

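The count of 4529 called genes ran from 3877 to 5373 under the other models, scalings and filters on the 10 mice and from 3736 to 4909 when 1 mouse was left out (2091 to 2644 higher, 1645 to 2265 lower). With all 15 mice in 1 fit it was 420 (278 higher, 142 lower). The cause was not tested, though the Old mice had the largest spread. Of 301 named genes called, 272 were called in every setting other than that fit and 85 also there. In the 15-mouse fit no MHC class II, interferon-stimulated or cholesterol synthesis gene was called higher. No respiratory chain or bile acid synthesis gene was called lower there, while 11 acute-phase and 5 plasma cell and immunoglobulin genes were called higher.

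Same-numbered mice are different animals, and their deviations correlated by -0.0464 to 0.148, over 0.1 in 1 of 5 pairs. They share only a number, and 4 of 10 mice correlated best with their own number. With the replicate block 3877 genes were called (2162 higher, 1715 lower), Dbp, Mt1, Ceacam1, Isg15, Cyp7b1, Fos and Jun lost their calls among the genes described, and clock genes called lower went from 9 to 5.

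The distance between PDX and Adult passed the test on the deposited log2 values (0.0598, p = 0.0317) and over the 500 most variable genes (0.288, p = 0.0476), both by exact permutation, and ranged from 0.0229 to 0.0902 with 1 mouse left out. PDX minus Old ranged from -0.580 to -0.297. With 1 mouse left out, weekly body weight change differed by -1.64 to -1.37%, grip force by -28.1 to -18.6 g, the frailty index by 0.168 to 0.218, treadmill distance by -35.5 to -25.2 m, running by -3.64 to -2.05 km per day and walking speed by -2.45 to 0.15 rpm, with the positive value without A4.

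Sign changes were limited to uncalled genes and walking speed. With 1 mouse left out, the log2 fold change ran from -0.0610 to 0.0400 for Cyp2f2 (above 0 without A3, A4, P1, P3 or P5), from -0.140 to 0.286 for Plin2 (above 0 without A1 or P1), from -0.716 to 0.0956 for Cyp7a1 (A4), from -0.00241 (P5) to 0.0785 for F2, from -0.397 to 0.0434 for Ghr (P3), from -0.117 (P5) to 0.654 for Krt19, from -0.380 to 0.0231 for Pck1 (P4) and from -0.131 (P3) to 0.611 for Timd4. Cyp2f2 was 0.00574 with at least 1 CPM in 5 mice, and Plin2 0.0682 with the replicate block. Depth limits low genes: a count of 0 over a library still allows up to 3 counts.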

Other observations

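The gene groups in this section were put together after the values had been seen, so their counts are descriptions. Immediate-early genes, which cells switch on within minutes of a stimulus, rose in 17 of 33 tested cases and fell in none, with a median log2 fold change of 0.75. Egr1, a zinc finger factor of this class, measured 63.8, 26.3, 23.2, 26.8 and 54.7 CPM in A1 to A5 and 457, 173, 272, 167 and 144 CPM in P1 to P5, without overlap (2.64 ± 0.39, adjusted p = 0.000767). Junb (1.86 ± 0.27), Ier5 (1.38 ± 0.16) and Rhob (1.28 ± 0.20) also had separate groups. Fos (1.66 ± 0.56, adjusted p = 0.0444) and Jun (1.39 ± 0.45, adjusted p = 0.0363) passed the test with overlap, since P5 for Jun (19.8 CPM) and P5 and P2 for Fos (8.23 and 8.54 CPM) lay within the Adult ranges of 13.1 to 42.1 and 2.1 to 15.5 CPM. The call of Fos was lost in 7 and that of Jun in 6 of the 10 omissions of 1 mouse, and without P1 the values were 1.40 and 1.06, and Fos was 2.42 without A5. The time from death to freezing of each mouse is not given, and its part in these values was not tested.

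Carboxylesterases, which split esters of drugs and of stored fat, fell in 8 of 13 cases and rose in none (median -0.85). Ces1f had 464 to 520.4 CPM in Adult and 84.8, 42.1, 218, 188 and 308 CPM in PDX (-1.57 ± 0.41, adjusted p = 0.0133). Both murinoglobulins, protease inhibitors of mouse plasma, fell: Mug1 from 868 to 1747 CPM to 204 to 482 CPM (-1.94 ± 0.26) and its close copy Mug2 from 525 to 623 CPM to 29.9, 64.6, 176, 189 and 325 CPM (-1.84 ± 0.48). Alcohol and aldehyde dehydrogenases were called lower in 11 of 23 cases and higher in 4. Of 20 genes of leukocytes in general 19 rose, with a median of 1.49.

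Major urinary proteins, a family of near-identical copies, were called higher in 7 of 18 cases and lower in 3. Mup17 measured 2.13 to 9.44 CPM in Adult and 1509.7, 1562, 225, 351 and 0.918 CPM in PDX, so 4 PDX mice were far above Adult and P5 was below. Mup3, Mup20 and Mup21 fell (Mup21 by 2.29 on the log2 scale, or -3.31 without P5). Because reads among these copies can be split, each member's value is uncertain.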
